A study of Mus musculus with 2 samples.

Results

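The genes described here are 54 regulators and effectors of the cell cycle, 22 of S phase, 26 of G2 and mitosis (G2/M) and 6 regulators of G1, among 29453 genes counted in a mouse chimera single-cell RNA-Seq experiment. They were taken by name from a list drawn up with earlier results of these data known, and all 54 were found in both the spliced and the unspliced count matrices. The question was how these genes stood in embryonic blood cells with and without *Gata1*, at each level of globin message, and in the remaining lineages of the same embryos. *Gata1* encodes the erythroid and megakaryocytic GATA factor that red cell progenitors need to mature.

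A proliferating cell loads the MCM helicase onto replication origins in G1, copies its DNA in S phase, and divides in M phase. D-type cyclins drive early G1, cyclin E (*Ccne1*, *Ccne2*) drives entry into S phase under E2F control, and cyclin A (*Ccna2*) and the B cyclins act with *Cdk1* through S phase, G2 and mitosis. The CDC25 phosphatases switch the cyclin-dependent kinases on, and the CDK inhibitors (*Cdkn1a*, *Cdkn1b*, *Cdkn2c*) hold them back. Primitive erythroid cells of the yolk sac differ from many differentiating cells in that they keep dividing while they fill with haemoglobin, so that in these embryos maturation and cell cycle run together.

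The tdTom+ cells descended from tdTomato-expressing mouse embryonic stem cells of 1 clone in which Cas9 had made a frameshift in *Gata1* (Gata1-/- in the labels), injected into wild-type blastocysts. The tdTom- cells were the wild-type C57BL/6 host cells of the same embryos and served as the control. Whole chimeric embryos, 6 in all, were pooled and sorted by tdTomato into 1 library for each fraction, with the age given as E8.5 for tdTom+ and E8.6 for tdTom-. The clone, its genetic background, the *Gata1* lesion and the library therefore all differ between the fractions and cannot be told apart, and with 1 library on each side no test between conditions was possible. Every interval below is a 95% interval for counting error only, and says nothing of variation between animals.

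After likely doublets were left out, 8582 tdTom+ and 8724 tdTom- cells remained, with a median of 17333.5 and 15770.5 spliced unique molecular identifiers (UMIs) per cell. Blood comprised 1613 tdTom+ and 1472 tdTom- cells, and 5223 and 5597 cells fell into other named lineages. Endothelium is not among those lineages, here or below. A level is the number of spliced UMIs that all cells of a group gave together, per 1000000 (CPM), and globin genes were left out of the total so that a rising globin share could not dilute the remainder. *Gata1* itself, the targeted gene, had 945 UMIs in tdTom+ blood, or 27.6 CPM, and 3737 UMIs in tdTom- blood, or 146 CPM, so that its message was lower but still present in the tdTom+ cells. The blood populations were not alike in makeup. Of tdTom- blood, 1376 cells were erythroid-like, 65 megakaryocyte-like and 30 myeloid-like, whereas tdTom+ blood held 3 erythroid-like, 259 blood progenitor-like and 460 myeloid-like cells and 890 cells that met no class rule. The erythroid gene *Klf1* stood at 89.3 against 256 CPM (tdTom+ first here and below, unless said otherwise), the progenitor gene *Gata2* at 128 against 4.28 CPM and the myeloid gene *Spi1* at 127 against 7.59 CPM. The authors reported *Spi1* raised in every *Gata1*- haematopoietic sub-cluster, so its level does not mark cell type alone. Of the 460 myeloid-like tdTom+ cells, 257 lay in a sub-cluster led by *Spi1* that also had 5 progenitor markers raised and held 3 tdTom- cells. The summed level of the erythroid marker list was 17770 CPM against 106400 CPM, and that of the myeloid list was 370 CPM against 28.1 CPM. The megakaryocyte list came to 31.4 against 18.6 CPM, although just 1 tdTom+ cell met the megakaryocyte class rule. The authors reported cells with a megakaryocyte signature as over-represented among *Gata1*- cells, so the class names used here do not match theirs. Blood cells with the same share of globin UMIs are therefore compared below, with values for some cell types alone. The authors reported the globin gene *Hbb-bs* lower in early erythroid *Gata1*- cells. An equal globin share therefore need not mean an equal stage of maturation in the fractions. Of the 18 cell barcodes found in both libraries, 3 marked kept blood cells.

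Promoter sequence, which no expression value enters, differed between the S-phase and the G2/M genes, and a few promoters are therefore shown first. RefSeq windows (GRCm38.p6), each running from 250 bases before the annotated start to 50 bases after it, matched 45 of the 54 genes, 19 of S phase, 22 of G2/M and 4 of G1. Some genes had several windows, and a gene is counted below when any of its windows holds the element. An E2F element, the binding sequence of the factors that switch on S-phase genes (searched as TTTCCCGC, TTTGGCGC, TTTCGCGC, TTTGCCGC or TTTCCGCC on either strand), occurred in 8 of 19 S-phase genes (42.1%) and 1 of 22 G2/M genes (4.55%), against 3.78% of all 27025 genes with a window. The CHR element (TTTGAA on either strand), through which the DREAM and MuvB complexes time late cell cycle genes, occurred in 4 S-phase genes (21.1%) and 15 G2/M genes (68.2%), against 20.2% of all. A CCAAT box (CCAAT on either strand) occurred in 12 S-phase (63.2%) and 19 G2/M genes (86.4%), against 41.1% of all, and a CHR together with a CCAAT box in 14 of the 22 G2/M genes (63.6%) against 8.97% of all. A GATA element (AGATAA or AGATAG on either strand, and TGATAA or TGATAG likewise), added after the data had been examined, occurred in 8 of the 45 genes (17.8%) against 33.0% of all. A match is a run of letters and not a bound site.

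Stretches of 150 bases ending just before the annotated start are given for 6 genes, 5′ to 3′ on the gene's own strand, with the E2F, CHR and CCAAT matches in capitals. The genes were picked after their matches and levels were known, to show an E2F-bearing helicase gene (*Mcm6*, chr1:128359706-128359855, minus strand), a kinase gene with both kinds of element (*Cdk1*, chr10:69352913-69353062, minus strand), CHR and CCAAT genes of mitosis (*Cdc20*, chr4:118437344-118437493, and *Mki67*, chr7:135716380-135716529, both minus strand), and the pair of genes whose levels differed most between the fractions in blood (*Ccne1*, chr7:38107491-38107640, minus strand, and *Cdc25b*, chr2:131186798-131186947, plus strand).
Mcm6: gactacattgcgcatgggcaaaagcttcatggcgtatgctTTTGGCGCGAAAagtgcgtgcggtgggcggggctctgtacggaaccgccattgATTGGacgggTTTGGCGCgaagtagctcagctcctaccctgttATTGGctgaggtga
Cdk1: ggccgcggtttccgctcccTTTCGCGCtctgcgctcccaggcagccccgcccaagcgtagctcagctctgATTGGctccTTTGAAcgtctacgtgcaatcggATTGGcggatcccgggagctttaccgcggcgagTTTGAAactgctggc
Cdc20: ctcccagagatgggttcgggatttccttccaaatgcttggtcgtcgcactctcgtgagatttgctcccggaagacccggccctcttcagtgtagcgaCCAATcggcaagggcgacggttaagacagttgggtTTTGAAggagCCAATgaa
Mki67: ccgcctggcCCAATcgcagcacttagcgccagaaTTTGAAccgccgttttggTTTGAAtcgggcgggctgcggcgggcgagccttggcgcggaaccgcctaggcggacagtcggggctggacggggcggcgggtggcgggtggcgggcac
Ccne1: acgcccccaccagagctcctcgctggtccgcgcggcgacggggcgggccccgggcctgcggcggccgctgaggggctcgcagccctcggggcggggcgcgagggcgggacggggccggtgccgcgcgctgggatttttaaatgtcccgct
Cdc25b: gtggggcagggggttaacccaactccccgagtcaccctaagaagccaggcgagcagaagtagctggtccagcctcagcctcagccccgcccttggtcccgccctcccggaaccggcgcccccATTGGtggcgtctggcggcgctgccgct
The *Mcm6* stretch carried E2F matches and inverted CCAAT boxes, whereas *Cdk1* carried an E2F match together with CHR and CCAAT matches. *Cdc20* and *Mki67* held CHR and CCAAT matches without an E2F match. None of these letters occurred in the *Ccne1* stretch, and *Cdc25b* held a CCAAT match alone.

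In sum, blood cells of both fractions carried the S-phase and G2/M genes at much the level of the remaining embryo. *Ccnd1* and *Ccnd2*, the D-type cyclins prevalent in the remaining lineages, were far lower in blood than in the pool of the other lineages, and *Ccnd3*, a D-type cyclin much used by haematopoietic cells, was higher. In tdTom- blood *Cdc25b* and *Hmmr* were higher as well, and *Cenpf* was lower in blood of both fractions. Summed over members, the S-phase genes came to 2830 CPM in tdTom+ blood against 3067 CPM in the other lineages and to 3210 against 3113 CPM in tdTom-. The G2/M genes came to 3925 against 4457 CPM in tdTom+ and 4666 against 4656 CPM in tdTom-.

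In tdTom+, 0 members were more than 2-fold higher in blood than in the other lineages and 3 of 54 were more than 2-fold lower, where 7.76% and 31.3% of the 13273 genes with at least 50 UMIs were. In tdTom-, 3 members were higher and 4 lower, against 5.78% and 40.0% of 13286 genes. The median gene was lower in blood by a log2 fold of -0.31 in tdTom+ and -0.58 in tdTom-, whereas the median member stood at -0.07 and 0.03. Of the 6 G1 regulators, 2 were lower in tdTom+ and 3 in tdTom-, with 1 higher in tdTom-, shares of lower genes near those of all genes. Taken relative to that shift, the tdTom- members split into 13 higher and 2 lower (*Ccnd1* and *Ccnd2*), against 14.4% and 32.3% of all genes on that scale. The tdTom+ members split into 0 higher and the same 2 lower, against 11.2% and 27.2% of all genes, and *Cenpf* was past 2-fold in neither fraction (-0.76 in tdTom+ and -0.53 in tdTom-). Scaled to all spliced UMIs, globin included, the tdTom- members split into 2 higher and 5 lower, *Hmmr* no longer being past 2-fold, against 4.95% and 42.9% of all genes.

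Among the D-type cyclins, *Ccnd1* stood at 8.36 CPM in tdTom+ blood and 255 CPM outside it (log2 fold -4.93, -5.10 to -4.76), and at 5.53 against 270 CPM in tdTom- (-5.61, -5.86 to -5.37). No other lineage came so low. In tdTom- the lowest was extraembryonic endoderm at 16.7 CPM and the highest caudal epiblast and neuromesodermal progenitors at 468 CPM, and endothelium, a close relative of blood, reached 369 CPM (tdTom+) and 287 CPM (tdTom-). Free RNA in the droplets, which was not estimated, may supply part of the *Ccnd1* counts in blood. The heart gene *Myl7* stood there at 13.4 against 970.5 CPM outside blood in tdTom+ and at 10.05 against 676 CPM in tdTom-. *Ccnd2* stood at 127 against 438 CPM in tdTom+ (-1.79, -1.83 to -1.74) and at 85.5 against 501 CPM in tdTom- (-2.55, -2.61 to -2.49). The tdTom- blood level of *Ccnd2* was not the lowest, since extraembryonic ectoderm stood at 19.3 CPM, whereas all 10 other tdTom+ lineages were at 254 CPM or more. *Ccnd3* went the other way, at 321 against 217 CPM in tdTom+ (0.57, 0.54 to 0.60) and 573 against 208 CPM in tdTom- (1.47, 1.44 to 1.5). Its tdTom+ blood level lay within the other lineages, of which allantois and mesenchyme reached 353 CPM, and its tdTom- blood level lay above all 12, the highest being extraembryonic ectoderm at 513 CPM. The shift from *Ccnd1* and *Ccnd2* towards *Ccnd3* was thus present in blood of both genotypes, and past 2-fold for *Ccnd3* in tdTom- alone. Of the CDK inhibitors, *Cdkn1b* (p27) was lower in tdTom- blood at 9.35 against 24.3 CPM (-1.38, -1.58 to -1.18) and stood at 11.5 against 22 CPM in tdTom+ (-0.93, -1.09 to -0.77).

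Among the mitotic genes, *Cdc25b*, the phosphatase that starts CDK activation before mitosis, stood at 62.0 CPM in tdTom- blood against 11.4 CPM in the other lineages (2.45, 2.33 to 2.56). The highest other tdTom- lineage, surface ectoderm, reached 15.7 CPM. In tdTom+ the same gene stood at 7.10 CPM in blood and 7.52 CPM outside it (-0.08, -0.30 to 0.13), so that tdTom+ blood lay within its other lineages. *Hmmr*, a spindle-associated protein, reached 341 CPM in tdTom- blood against 170 CPM (1.00, 0.96 to 1.04), on the edge of 2-fold, and 270 CPM in tdTom+ against 171 CPM (0.65, 0.62 to 0.69). *Mki67*, which encodes the Ki-67 coat of mitotic chromosomes, stood at 424 against 236 CPM in tdTom- (0.85, 0.81 to 0.88) and at 250 against 230 CPM in tdTom+ (0.12, 0.08 to 0.15). In the opposite direction, *Cenpf*, a large kinetochore and microtubule protein, stood at 244 against 514 CPM in tdTom+ (-1.08, -1.11 to -1.04) and 250 against 540 CPM in tdTom- (-1.11, -1.15 to -1.07). *Cenpa*, *Cdc25c* and *Cdk1* were likewise below all 10 (tdTom+) and all 12 (tdTom-) other lineages, without reaching 2-fold against their pool. Of all genes, 29.3% in tdTom+ and 23.2% in tdTom- lay below that range.

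Among the S-phase genes the fractions parted at *Ccne1*. It stood at 243 CPM in tdTom- blood and 133 CPM in the other tdTom- lineages (0.87, 0.82 to 0.91), where extraembryonic ectoderm alone was higher. In tdTom+ blood it stood at 79.3 CPM, below all 10 other tdTom+ lineages (94.5 to 185 CPM) and below their pool of 139 CPM (-0.81, -0.87 to -0.75). The helicase and origin genes *Mcm2*, *Cdc6* and *Cdt1*, the ribonucleotide reductase subunit *Rrm1*, the histone mRNA binding protein *Slbp* and the atypical E2F *E2f8* were above all 12 other lineages in tdTom- blood, by under 2-fold against the pool, and the remaining 16 S-phase genes lay within the range of those lineages. Of all 13286 genes, 10.4% were above and 23.2% below that range in tdTom-. In tdTom+ blood 1 S-phase gene (*E2f1*) was above the 10 lineages there, 3 were below (*Ccne1*, *Rrm2* and *Fen1*) and 18 were within, where 16.9% of all 13273 genes were above and 29.3% below. Of the 26 G2/M genes, 6 were above, 4 below and 16 within in tdTom-, against 1 above, 7 below and 18 within in tdTom+. The ranges of the fractions are not alike, so these counts cannot be set directly against each other. Extraembryonic endoderm and ectoderm enter the tdTom- range alone, since they held 7 and 1 tdTom+ cells. *Bub1*, *Rrm2* and *Top2a*, below the range in tdTom+, had their lowest tdTom- level in extraembryonic endoderm (75.7, 105 and 200 CPM).

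**Figure D1:**
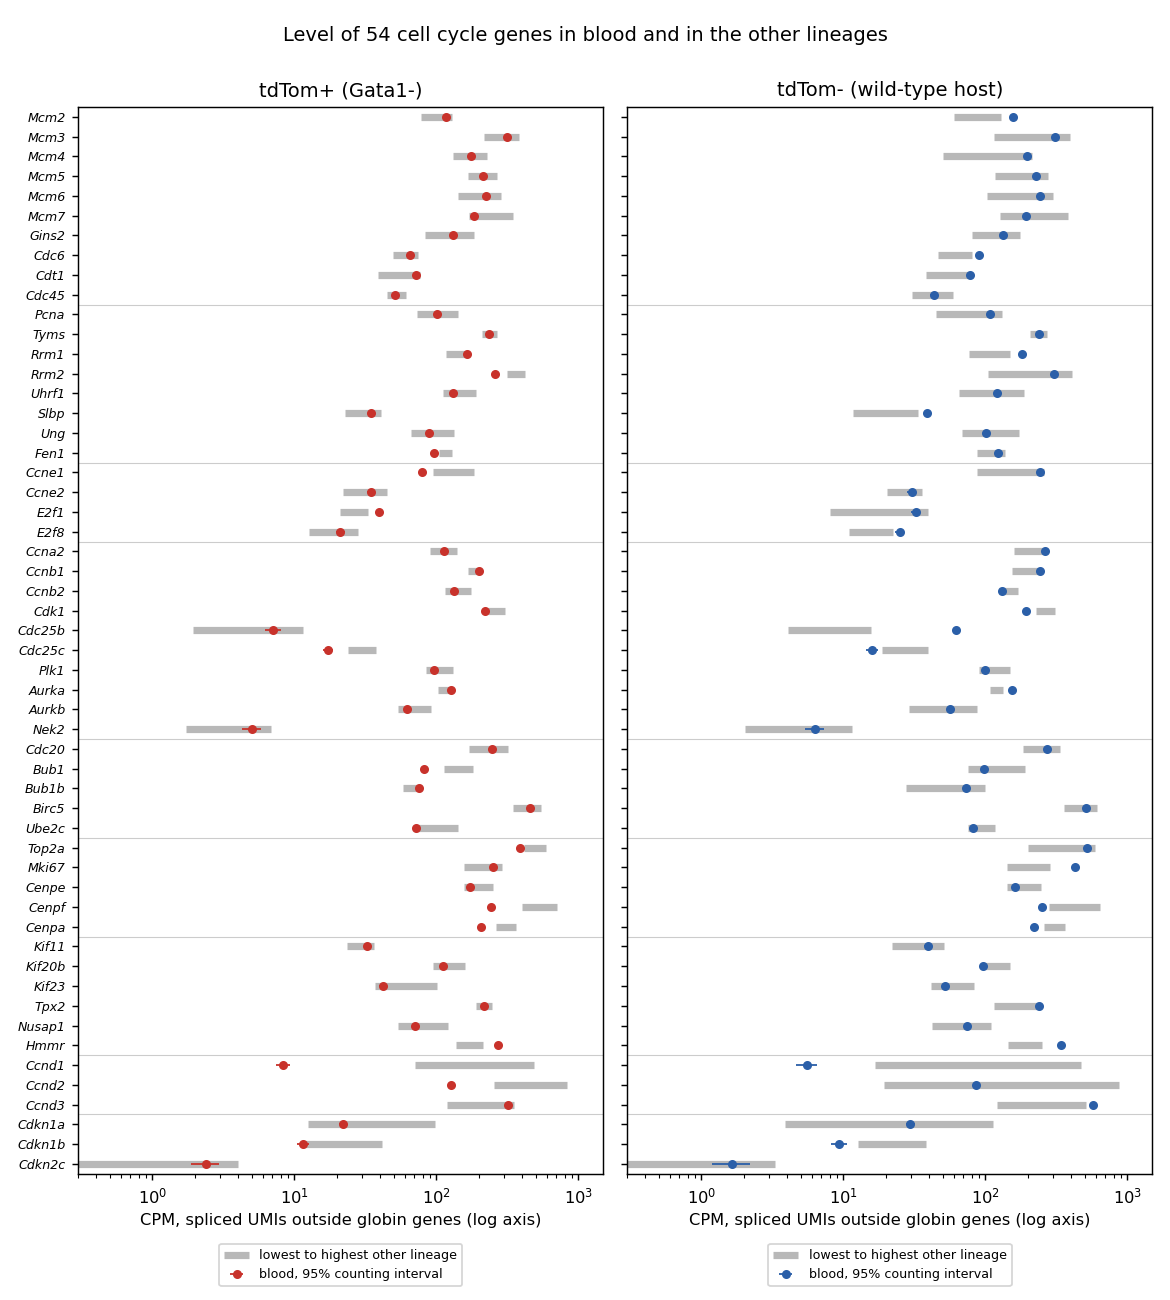
Level of each of the 54 genes in CPM of spliced UMIs outside the globin genes (log axis) in tdTom+ (left) and tdTom- cells (right), with genes grouped by role between the horizontal lines. Points with bars are blood with its 95% counting interval and grey bars run from the lowest to the highest other named lineage (10 in tdTom+, 12 in tdTom-, including extraembryonic ones; the bar of *Cdkn2c*, whose lowest lineage is at 0, ends at the axis): *Ccnd1* lies below its bar in both fractions and *Cdc25b* above its bar in tdTom- only.

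Between the fractions, blood cells were next compared at the same globin share. Most members of tdTom+ and tdTom- blood then lay within a small distance of each other, a little lower in tdTom+. The exceptions were the S-phase cyclins *Ccne1* and *Ccna2* and the phosphatase *Cdc25b*, all lower in tdTom+, and the rarely counted CDK4/6 inhibitor *Cdkn2c*, which was higher. *Ccnd3* and *Mki67* followed in the lower direction without reaching 2-fold, although *Ccnd3* passed it with cells thinned to 3000 UMIs (-1.06), where *Cdkn2c* was no longer called, as also with a minimum of 200 UMIs. The bin of 1% to 10% globin UMIs was used for the main comparison because it held most cells of both fractions, 938 tdTom+ and 756 tdTom-. Within it the median globin share was still 2.41% in tdTom+ and 7.11% in tdTom- cells, and 659 of the tdTom+ cells had no class name whereas 732 of the tdTom- cells were erythroid-like.

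In that bin 1 of 54 members was more than 2-fold higher in tdTom+ and 3 were more than 2-fold lower, against 6.95% and 4.01% of 9293 genes. The counts of members past 2-fold were thus close to the background, and nothing particular to the list follows from them. The median log2 fold was 0.04 over all genes, -0.14 over the S-phase genes (3 above 0 and 19 below) and -0.16 over the G2/M genes (7 above and 19 below). Summed levels were 2791 against 3317 CPM for S phase, 3807 against 4517 CPM for G2/M and 426 against 670 CPM for the G1 regulators. The G1 regulators had a median log2 fold of 0.07 (3 above 0 and 3 below), and the gap in their sum lay in *Ccnd3*. *Ccne1* made up a large part of the S-phase gap, and both genes are given below.

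*Ccne1* (ENSMUSG00000002068, chr7:38097984-38107534, minus strand, GRCm38), the cyclin E that partners CDK2 at the start of S phase, had 1556 UMIs in the tdTom+ cells of this bin (77.7 CPM) and 3475 in the tdTom- cells (262 CPM). The log2 fold was -1.75 (-1.84 to -1.67). In tdTom- blood it was 56.1 CPM in cells with under 0.1% globin UMIs, 153 CPM at 0.1% to 1%, 262 CPM at 1% to 10% and 235 CPM at 10% or more. In tdTom+ blood it was 69.0, 89.6 and 77.7 CPM in the first 3 of these bins, and no tdTom+ cell had 10% or more. The tdTom- bins differed in cell type, since 21 of the 29 cells in the lowest were myeloid-like, 34 of 51 in the next megakaryocyte-like and 732 of 756 at 1% to 10% erythroid-like. Among erythroid-like tdTom- cells alone, *Ccne1* was 268 CPM in the group with the least globin and 214 CPM in that with the most. The intervals of the fractions overlapped in the lowest bin (0.30, -0.23 to 0.88), where most cells were myeloid-like, and separated in the next. Its paralogue *Ccne2* differed little, at 36.6 against 35.4 CPM in the main bin (0.05). By sub-cluster, *Ccne1* reached 110 CPM in the largest tdTom+ sub-cluster, which had no class name, and 59.8 to 68.3 CPM in the other large tdTom+ sub-clusters, and 244 to 272 CPM in the 3 large erythroid-like tdTom- sub-clusters.

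*Cdc25b* (ENSMUSG00000027330, chr2:131186949-131198497, plus strand) showed the widest gap, with 154 UMIs against 728, or 7.69 against 54.8 CPM (-2.83, -3.09 to -2.58). In tdTom- it was higher bin by bin, at 10.9, 25.2, 54.8 and 75.9 CPM, whereas in tdTom+ it was 4.90, 7.14 and 7.69 CPM. Both lowest-bin values rest on few counts, 27 UMIs in tdTom+ and 6 in tdTom-. The related phosphatase gene *Cdc25c* had an interval that spanned a log2 fold of 0.

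*Ccna2* (ENSMUSG00000027715, chr3:36564865-36572150, minus strand), the cyclin A of S phase and G2, stood at 115 against 272 CPM (-1.24, -1.32 to -1.17). By globin bin it stood at 105, 116 and 115 CPM in tdTom+ and at 201, 253, 272 and 254 CPM in tdTom-. It was also lower in tdTom+ cells of all 10 other lineages, as given below. *Cdkn2c* (p18) stood at 2.70 against 1.13 CPM on 54 and 15 UMIs (1.25, 0.41 to 2.19), and is the least certain of the genes past 2-fold.

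*Ccnd3* was lower by just under 2-fold, at 279 against 538 CPM (-0.95, -1.0 to -0.90), and lay below the tdTom- value in every bin: 473, 323 and 279 CPM in tdTom+ and 666, 663, 538 and 604 CPM in tdTom-. *Mki67* stood at 257 against 415 CPM (-0.69), *Cdc6*, which loads the helicase, at a log2 fold of -0.58, and the helicase subunit *Mcm2* at 116 against 162 CPM (-0.48). Genes that act beside them differed far less. *Pcna*, the sliding clamp of the replication fork, stood at a log2 fold of -0.07, *Mcm5* at -0.14, the mitotic kinases *Cdk1* and *Plk1* at 0.10 and -0.11, cyclin B1 (*Ccnb1*) at -0.12, the anaphase activator *Cdc20* at -0.19 and *Cenpf* at -0.03. *Aurkb* and *Cdc45* lay slightly above 0, at 0.26 and 0.28.

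By role, the remaining members of this bin were as follows. The other helicase genes (*Mcm3*, *Mcm4*, *Mcm6* and *Mcm7*) and their partners *Gins2* and *Cdt1* had log2 folds between -0.21 and -0.07. At the fork, *Tyms*, which makes thymidylate, *Rrm1* and *Uhrf1* lay between -0.14 and -0.08, and *Rrm2*, *Slbp*, *Ung* and *Fen1* lay lower, between -0.33 and -0.29. *Rrm2*, the regulated subunit of ribonucleotide reductase, stood at 266 against 328 CPM. Of the E2F genes, *E2f1* was at 0.13 with an interval that spanned 0, and *E2f8* at -0.42 (-0.62 to -0.21).

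The late genes showed the same mixture of small values. *Ccnb2*, *Bub1b*, *Cenpe*, *Nusap1* and *Kif11* had intervals that spanned 0. The mitotic kinase *Aurka* was at -0.16, the checkpoint kinase *Bub1* at -0.21, the chromosomal passenger protein *Birc5* at -0.16 and the ubiquitin-conjugating enzyme *Ube2c* at -0.17. The spindle genes *Hmmr*, *Tpx2* and *Kif23* lay between -0.31 and -0.21, and *Kif20b* at 0.20. *Top2a* stood at 388 against 493 CPM (-0.35) and the centromeric histone gene *Cenpa* at 186 against 219 CPM (-0.24). *Nek2*, on 80 and 85 UMIs, was at -0.68 with a wide interval (-1.14 to -0.22). Among the G1 regulators *Ccnd2* was at 0.21, *Cdkn1b* at 0.38 (0.05 to 0.71) and *Cdkn1a* at -0.28 (-0.52 to -0.04), and *Ccnd1* was scarce in both fractions, at 4.79 against 5.05 CPM. The tdTom- value of *Cdkn1a* includes cells of a *Cdkn1a*-high sub-cluster, described below, that held no tdTom+ cell. Without them *Cdkn1a* was lower in tdTom- than in tdTom+ cells of this bin.

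In the same bin, with sub-clusters whose markers were mostly erythroid or blood progenitor only (858 and 732 cells), *Cdc25b* (-2.84), *Ccne1* (-1.70), *Ccna2* (-1.21) and *Cdkn2c* (1.14) were past 2-fold again, and *Cdkn1a* was added to the lower members (-1.03). These tdTom- cells were all erythroid-like, whereas most of the tdTom+ cells had no class name, so cell type still differed between the fractions. The *Cdkn1a* value there includes tdTom- cells of a *Cdkn1a*-high sub-cluster, described below. Of the 9116 genes with at least 50 UMIs there, 6.11% were more than 2-fold higher and 4.18% more than 2-fold lower.

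The calls varied with the bin. Between 0.1% and 1% globin (398 and 51 cells, 34 of the latter megakaryocyte-like), 0 of 53 members were higher and 4 lower, against 5.07% and 5.38% of 7678 genes: *Cdc25b* (-1.82), *Ccna2* (-1.12), *Ccnd3* (-1.04) and *Ccnd1* (-1.01, on 49 and 9 UMIs). *Ccne1* there stood at -0.77. Under 0.1% (277 and 29 cells, mostly myeloid-like), 2 of 51 were higher, *Cdkn1a* (p21, 40.7 against 18.1 CPM) and *E2f8*, and 0 lower, against 5.01% and 2.57% of 7232 genes. In a bin of 2% to 4%, added after the data had been examined so that the globin shares were closer (435 and 77 cells), 0 were higher and 5 lower, against 5.78% and 3.47% of 7547 genes: *Cdc25b* (-2.21), *Ccne1* (-1.70), *Ccna2* (-1.32), *Cdkn1a* (-1.25) and *Ccnd3* (-1.05). The *Cdkn1a*-high sub-cluster described below had no cell in this bin, since its lowest globin share was 5.395%. Megakaryocyte-like tdTom- cells reached 4.62% globin, so the bin may include some of them. Over all blood, 0 were higher and the trio of *Cdc25b* (-3.13), *Ccne1* (-1.61) and *Ccna2* (-1.21) lower, against 11.8% and 3.84% of 10435 genes, with the median gene at 0.12. In myeloid-like cells, of which tdTom- held 30 and which in tdTom+ included the *Spi1*-led sub-cluster, *Ccna2* was lower (-1.24) and *Ccne1* stood at -0.30, against 8.70% higher and 6.12% lower of 8198 genes.

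**Figure D2:**
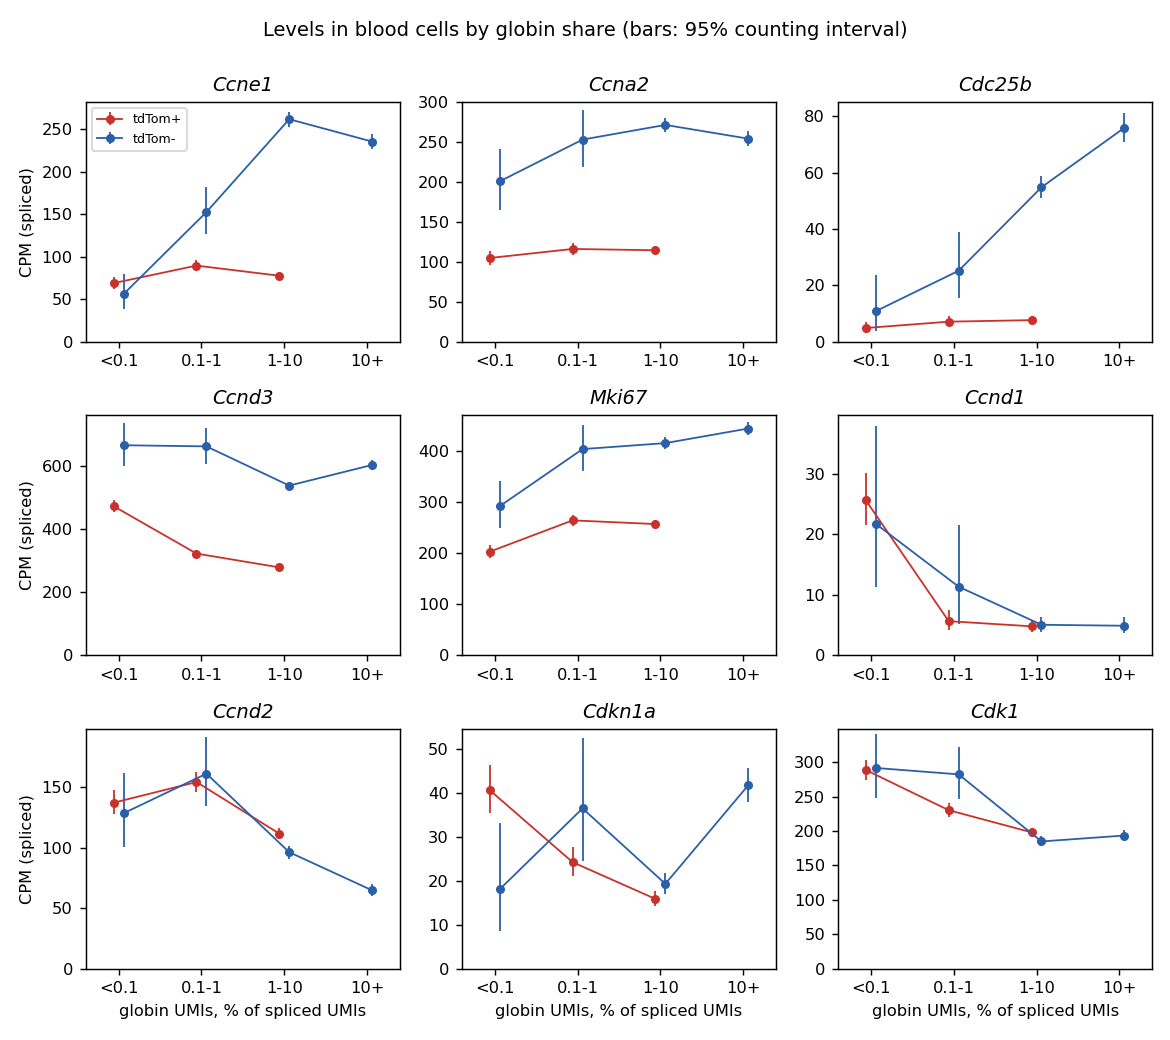
Level of 9 of the genes in CPM of spliced UMIs (vertical axes, from 0) against the share of a blood cell's spliced UMIs that were globin (horizontal axes, %), in tdTom+ (red) and tdTom- cells (blue), with 95% counting intervals. *Cdc25b* in tdTom- cells goes from 10.9 CPM in the lowest bin to 75.9 CPM in the highest, where the 2 lowest bins hold mostly myeloid-like and megakaryocyte-like cells, and *Ccna2* is lower in tdTom+ in each shared bin.

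In the other lineages, where *Gata1* is barely transcribed (0.392 against 1.92 CPM outside blood), the same 54 genes lay close together between the fractions. Pooled over lineages, 0 members were past 2-fold, against 0.534% of 14051 genes higher and 2.45% lower. The median log2 fold was 0.01 over the S-phase genes, -0.05 over the G2/M genes and -0.05 over all genes. Lineage by lineage, *Cdkn1a* was past 2-fold higher in tdTom+ in 4 of the 10 lineages and *Ccna2* past 2-fold lower in 1, neural crest, where 0.635% of genes were. The share of genes past 2-fold higher was 0.241% in pharyngeal and splanchnic mesoderm, 0.213% in somitic mesoderm, 0.36% in neural and 0.324% in neural crest cells. *Ccna2* stood at 112 against 191 CPM pooled (-0.77, -0.81 to -0.74). It was lower in tdTom+ in each of the 10 lineages, by a log2 fold of -1.0 to -0.68, with 89.8 to 139 CPM in tdTom+ and 160 to 235 CPM in tdTom-, so that the fractions did not overlap. In blood its fold was -1.24, just outside that range.

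*Ccne1*, by contrast, ranged from -0.02 to 0.45 over the other lineages and *Ccnd3* from -0.21 to 0.04, so the gaps in blood lay far outside what the lineages showed. For *Cdc25b*, which had enough UMIs in 7 lineages, the range was -0.76 to 0.36, against -2.83 in blood. *Mki67* ranged from -0.27 to 0.07. *Slbp* (0.03 to 0.46) and *Ccne2* (0.12 to 0.43) were slightly higher in tdTom+ in 10 of 10 lineages. *Cdkn1a* was the most variable member, from -0.64 to 2.63, and was higher in tdTom+ in 9 of 10 lineages. It stood at 25.1 against 4.04 CPM in somitic mesoderm (117 and 20 UMIs), 20 against 3.90 CPM in pharyngeal and splanchnic mesoderm (58 and 12 UMIs), 12.4 against 4.24 CPM in neural and 19.7 against 7.34 CPM in neural crest cells.

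**Figure D3:**
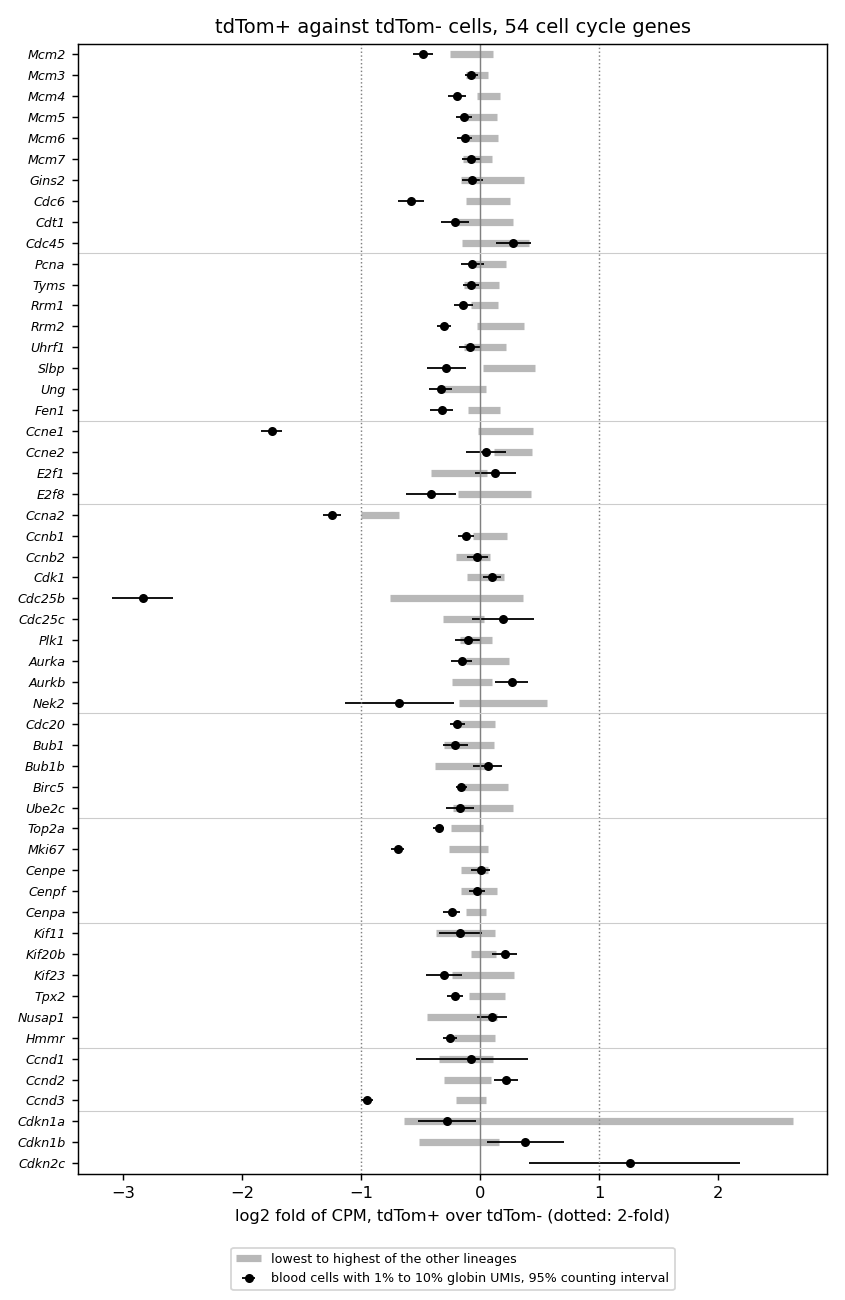
log2 fold of CPM of tdTom+ over tdTom- cells (horizontal axis, dotted lines at 2-fold) for the 54 genes, grouped by role between the horizontal lines. Black points with bars are blood cells with 1% to 10% globin UMIs and their 95% counting intervals, and grey bars run from the lowest to the highest of the other lineages: *Cdc25b*, *Ccne1* and *Ccnd3* lie far to the left of their grey bars, while the bar of *Ccna2* is itself to the left of 0.

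Within tdTom- blood, cells with more globin were compared with cells with less, the wild-type course of maturation. *Cdc25b* was higher and *Ccnd1* and *Ccnd2* lower in the cells richest in globin. Within the erythroid-like cells alone, S-phase genes were slightly lower and G2/M genes slightly higher in the cells with most globin, with *Ccne2* and *Cdkn1a* at the extremes. The 636 cells with 10% or more globin UMIs, all erythroid-like, were set against the 51 cells with 0.1% to 1%. Of 53 members, *Cdc25b* was higher (1.59, 0.95 to 2.31; 839 and 20 UMIs), and *Ccnd2* (64.9 against 161 CPM, -1.31) and *Ccnd1* (-1.22, 54 and 9 UMIs) were lower, against 5.15% and 12.0% of 7536 genes. The median gene was at -0.18, and relative to it the same 3 members were past 2-fold. The *Cdc25b* call was also present with cells thinned to 3000 UMIs (1.33), but *Ccnd2* then stood at -0.72, *Ccnd1* had too few UMIs, and *Aurkb* was past 2-fold lower. A minimum of 200 UMIs left *Ccnd1* out, and scaling to all spliced UMIs added *E2f1* (-1.04) to the lower members. *E2f1* (-0.84), *Ccne2* (-0.77), *Slbp* (-0.70) and *Cdk1* (-0.55) stood below 0, and *Ccne1* (0.63) and *Ccnb1* (0.54) above it, all under 2-fold. Since 34 of the 51 low-globin cells were megakaryocyte-like, this contrast also spans cell types, and the 1376 erythroid-like cells were therefore ranked by globin share and divided into 4 groups of 344, an alternative added after the data had been examined.

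From the lowest to the highest group (median globin 5.09%, 8.27%, 11.0% and 14.8%), *Ccne2* stood at 40.9, 31.8, 26.6 and 19.8 CPM and *Cdc25b* at 42.8, 65.2, 63.7 and 87.8 CPM. *Ccne2* was thus lower at each step. *Ccnd2* stood at 128, 81.7, 60.1 and 68.2 CPM, and *Ccne1* at 268, 262, 259 and 214 CPM. Between the outer groups 2 of 53 members were higher, *Cdkn1a* (2.15) and *Cdc25b* (1.04), and *Ccne2* was lower (-1.05), against 1.23% and 2.47% of 7504 genes. The S-phase genes had a median log2 fold of -0.25, with 2 above 0 and 20 below, and the G2/M genes one of 0.24, with 23 above and 3 below, while all genes had a median of -0.09. In the contrast of 10% or more over 0.1% to 1% globin both medians were below 0. They were -0.19 for S phase (3 above 0 and 19 below) and -0.14 for G2/M (9 above and 17 below). S-phase members with the lower values included *Ung* (-0.73), which removes uracil from DNA, *Uhrf1* (-0.58), which reads hemimethylated DNA behind the fork, *Cdc6* (-0.56), *E2f1* (-0.56) and *Rrm2* (-0.47). G2/M members with the higher values included the spindle genes *Nusap1* (0.82) and *Kif11* (0.68), *Cdc25c* (0.58) and *Cenpf* (0.38). Summed levels in the highest and lowest of the 4 groups were 2913 and 3459 CPM for S phase and 4952 and 4319 CPM for G2/M.

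The *Cdkn1a* difference came from one small group of cells. *Cdkn1a* (ENSMUSG00000023067, chr17:29090976-29100727, plus strand) encodes p21, the CDK inhibitor that p53 induces after damage, and stood at 14.5, 21.3, 19.1 and 64.7 CPM across the 4 groups. One sub-cluster of 44 tdTom- cells, found without using any of the 54 genes and picked out after its *Cdkn1a* level was seen, held 529 *Cdkn1a* UMIs, or 822 CPM (753 to 895). Of its cells, 43 of 44 had a *Cdkn1a* UMI (97.7%), against 49 of the other 1332 erythroid-like tdTom- cells (3.68%), which held 182 UMIs or 7.78 CPM (6.69 to 8.99). The median depth was 16358 spliced UMIs in the sub-cluster and 19155 in the remainder, and the mitochondrial shares were 2.95% and 3.09%. The cyclin G gene *Ccng1*, another p53 target, was likewise at 329 against 17.3 CPM, with a UMI in 43 of 44 cells and 283 of 1332 (21.3%). Whether p53 was active in these cells was not tested. No tdTom+ cell fell into the sub-cluster, but tdTom+ blood held just 3 erythroid-like cells in all. Of its 44 cells, 29 lay in the group with most globin and 2 in that with least.

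Without those cells the outer groups gave *Cdkn1a* a log2 fold of 0.15 (-0.40 to 0.69; 11.1 against 10.0 CPM), and 0 members were past 2-fold, against 1.08% and 2.61% of 7432 genes. *Cdc25b* (0.99) and *Ccne2* (-0.98) then lay at the edge of 2-fold, and the S-phase and G2/M medians were -0.23 and 0.23. The neighbouring contrast of 10% or more over 1% to 10% globin behaved alike. With all cells *Cdkn1a* was its single member past 2-fold (1.11; 41.8 against 19.4 CPM; 0.374% of 8557 genes higher and 1.33% lower), and without the sub-cluster it stood at -0.12 (7.66 against 8.31 CPM) with 0 members past 2-fold (0.341% and 1.42% of 8513 genes). In 10% or more over 0.1% to 1% globin, leaving it out added *Cdkn1a* to the lower members (-2.26; 7.66 against 36.5 CPM on 81 and 29 UMIs; 5.11% and 11.9% of genes), where it had stood at 0.19.

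In tdTom+ blood the contrast of 1% to 10% over under 0.1% globin gave 1 of 54 members higher, *Cdkn2c* (1.57, 54 and 5 UMIs), and 2 lower, *Ccnd1* (-2.42) and *Cdkn1a* (-1.35), against 3.60% and 12.3% of 9288 genes. The cells with least globin were mostly myeloid-like (253 of 277), so this contrast too spans cell types.

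Per cell, the S-phase and G2/M members were summed after every cell had been thinned to 3000 spliced UMIs, so that depth could not set the sums. In blood the mean of both sums was lower in tdTom+ than in tdTom- cells. The mean S-phase sum was 8.74 UMIs in tdTom+ blood and 9.83 in tdTom- blood, and the mean G2/M sum 11.4 and 13.6, over 1607 and 1450 cells (6 and 22 were too shallow). In the other lineages the means were 9.39 and 9.57 for S phase and 12.9 and 13.3 for G2/M. Single genes weighed heavily in the gaps between the blood sums. *Ccne1* gave a mean of 0.25 and 0.79 UMIs per blood cell, *Mki67* 0.72 and 1.335, and *Ccna2*, lower in tdTom+ outside blood too, 0.31 and 0.75. *Cdk1* went the other way, at 0.63 and 0.56. Whether fewer tdTom+ cells were dividing was not tested. In the thinned data, cells with no G2/M UMI numbered 3 of 1607 in tdTom+ and 0 of 1450 in tdTom- blood, and the latter allows a share of up to 0.207%. Free RNA in the droplets, which was not estimated, can give such UMIs too, so these counts do not show that each cell expressed the genes. Within the bin of 1% to 10% globin the means were 8.6 against 10.1 for S phase and 11.1 against 13.3 for G2/M.

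The tdTom+ sub-clusters differed among themselves. The largest, of cells without a class name, had a mean S-phase sum of 9.72 and a G2/M sum of 10.1, and another tdTom+ sub-cluster had 7.45 and 13.2. Megakaryocyte-like tdTom- cells had the means 9.27 and 16.0. In the *Cdkn1a*-high sub-cluster the means were 7.18 for S phase and 14.3 for G2/M.

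**Figure D4:**
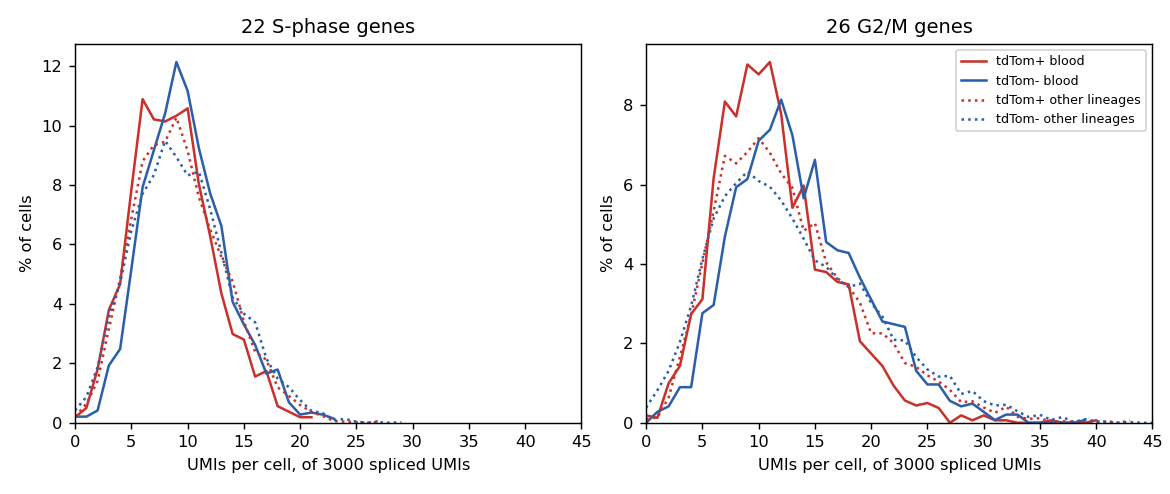
Share of cells (vertical axis, %) by the number of UMIs of the 22 S-phase genes (left) and the 26 G2/M genes (right) per cell thinned to 3000 spliced UMIs (horizontal axis), in blood (solid) and other named lineages (dotted) of tdTom+ (red) and tdTom- (blue) cells. The tdTom+ blood curves lie to the left of the tdTom- blood curves, with means of 8.74 and 9.83 on the left and 11.4 and 13.6 on the right. Single genes such as *Ccne1* and *Mki67* weigh heavily in these gaps.

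Whether the genes varied together from cell to cell was described by Pearson's r over thinned blood cells, which share library and depth. The S-phase and G2/M sums had an r of -0.27 in tdTom+ and -0.20 in tdTom- blood, and of -0.34 in the other lineages of either fraction. Between single genes the values were near 0 at this depth, with a mean r of 0.02 and 0.01 within the S-phase genes, 0.04 in both fractions within the G2/M genes and -0.02 between the lists. The order was nevertheless regular, since 21 of 22 S-phase genes in tdTom+ and 20 of 22 in tdTom- blood were on average closer to their own list than to the other, as were 25 and 26 of the 26 G2/M genes. *Top2a*, the topoisomerase that untangles replicated DNA, and *Cenpf* had an r of 0.21 in tdTom- blood, and *Plk1* and *Cenpf* had an r of 0.16 in tdTom+. Among the G1 regulators, *Ccnd2* lay closest to *Ccnd3* in tdTom+ (0.13), and *Cdkn1a* to *Cdc25b* in tdTom- (0.10), where the sub-cluster described above was included.

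Unspliced UMIs come from transcripts that still carry intron sequence, and their share reflects new transcription, splicing speed and intron content. The median cell cycle gene had a lower unspliced share than the median gene with at least 50 UMIs, in blood and outside it. The median member was at 6.06% in tdTom+ and 6.40% in tdTom- blood, against 20.3% and 20.01% for all genes, and at 5.06% and 5.61% in the other lineages, against 22.7% in both. Summed over all genes but globin, where abundant genes weigh most, the share was 11.4% in tdTom+ and 10.8% in tdTom- blood. In the small tdTom- bin of 0.1% to 1% globin, the 16 members with at least 200 UMIs had a median of 5.04%, above the 1.92% of the 785 genes that passed that minimum. S-phase genes had medians of 8.86% and 7.71% in blood and 8.10% and 8.20% elsewhere, and G2/M genes 6.05% and 6.61% in blood and 5.06% and 5.61% elsewhere.

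Blood differed from the other lineages gene by gene. Counting intervals lay apart for 9 S-phase genes in tdTom+ (3 higher and 6 lower in blood) and 16 in tdTom- (4 higher and 12 lower), and for 11 G2/M genes in tdTom+ (8 higher and 3 lower) and 12 in tdTom- (9 higher and 3 lower). Over all genes, 15.2% were higher and 10.5% lower of 10730 in tdTom+, and 17.5% and 11.6% of 9853 in tdTom-, in the same sense. *Slbp* was 33.0% unspliced in blood of both fractions (30.8% to 35.3% in tdTom+ and 30.6% to 35.4% in tdTom-), against 41.8% and 46.5% in the other lineages. The helicase subunit *Mcm6* was at 12.0% and 10.9% in blood against 7.33% and 7.79% elsewhere, and *Nusap1* at 18.1% and 20.01% against 12.9% and 13.1%. *Cdc25b* had a lower share in blood, 8.65% and 11.1% against 16.2% and 17.5%. These differences went the same way in both fractions.

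Between the fractions the unspliced shares of the same globin bin were alike for most members. In the bin of 1% to 10%, intervals lay apart for 2 of 22 S-phase and 2 of 26 G2/M genes, 1 in each direction in both lists, against 1.7% of 8712 genes higher and 3.94% lower in tdTom+, so that the members' counts were near the background. *Ccne1* was 3.65% unspliced in tdTom+ (2.79% to 4.69%) and 2.11% in tdTom- cells (1.67% to 2.64%), and *Fen1*, the flap endonuclease of the lagging strand, 2.40% (1.77% to 3.18%) and 4.96% (3.97% to 6.12%). For *Cdc25b*, with the widest gap in spliced level, the shares were 8.33% and 10.5%.

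**Figure D5:**
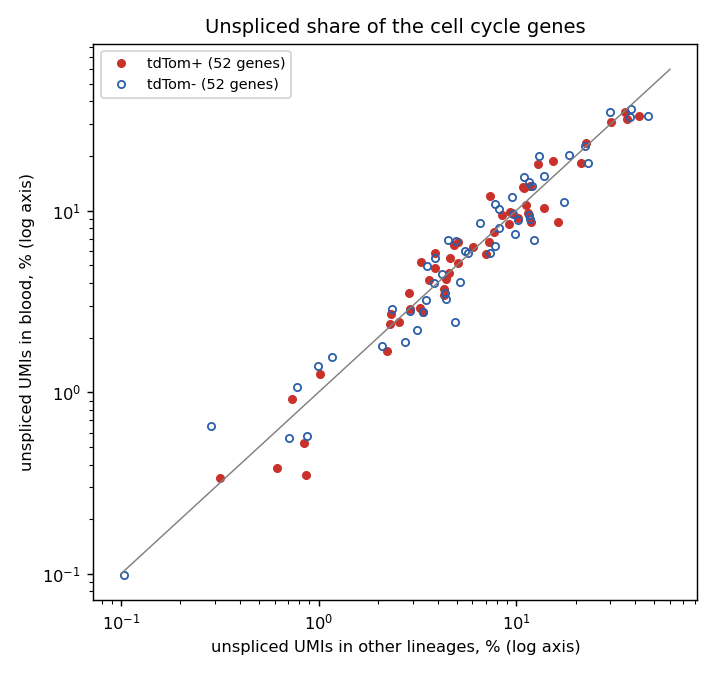
Unspliced share of each gene's UMIs in blood (vertical axis, %, log axis) against that in the other named lineages (horizontal axis, %, log axis), for the 52 genes with a share above 0 in both and at least 50 UMIs in blood, in tdTom+ (filled) and tdTom- cells (open), with the line of equal shares. The points follow the line from under 1% to over 30%, with *Slbp* (33.0% in blood) below it at the upper end.

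Lists of other cell cycle genes, drawn up beside the 54, gave the setting. In the bin of 1% to 10% globin, 0 of 25 other S-phase genes were past 2-fold between the fractions, with a median log2 fold of -0.06, and *Hells* (0.78, 203 against 118 CPM), *Cdca7* (0.68) and *Blm* (-0.36) lay furthest from 0. Of 29 other G2/M genes measured, *Cit*, the citron kinase of cytokinesis, was lower (-1.40, 30.4 against 80.3 CPM), with *Ect2* (-0.78) and *Anln* (0.48) next and a median of 0.00. Of 18 other cell cycle regulators measured, 2 were higher and 2 lower, with *Cdkn1c* (p57, -6.27, 0.150 against 11.5 CPM), *Cdk6* (2.44, 11.9 against 2.18 CPM) and *Ccng2* (1.95) furthest from 0. Over all 9293 genes of this bin, 6.95% were more than 2-fold higher and 4.01% more than 2-fold lower. *Cdkn1c* was also lower in tdTom+ cells of the other lineages, at 9.15 against 650 CPM (-6.15).

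Between the outer globin groups of erythroid-like tdTom- cells the other lists stood in the same order as the members, with a median of -0.31 for the other S-phase genes (3 of 25 above 0) and 0.05 for the other G2/M genes (20 of 29 above 0). Against the other lineages, tdTom+ blood had 0 other S-phase genes past 2-fold and 3 other G2/M genes lower, *Gas2l3* (-2.18), *Psrc1* (-1.56) and *Ect2* (-1.27), where 7.76% of all genes were higher and 31.3% lower. Of 19 other regulators measured there, 1 was higher and 3 lower, among them *E2f2* (1.79), *Cdkn1c* (-5.71) and *E2f7* (-1.61). In tdTom- blood *Cdca7* was lower (-1.33), as were *Gas2l3* (-3.13) and *Psrc1* (-1.65), and *Cit* was higher (1.67), where 5.78% of all genes were higher and 40.0% lower. Of 20 other regulators, 2 were higher and 6 lower, among them *Cdkn1c* (-5.67, 12.8 CPM in blood against 650 CPM in the other lineages), *Cdk6* (-3.04) and *Cdkn2b*, which had 0 UMIs in blood and 51 in the other lineages.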

How the data were processed

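Sorted cells of pooled chimeric embryos were profiled with 10X Chromium v3 chemistry. The authors aligned reads with Cell Ranger 3.0.2 to mm10 (GRCm38), called cells with emptyDrops, removed low-quality cells with a mixture model, and deposited spliced and unspliced UMI counts from velocyto as whole numbers per cell and gene. Mitochondrial content was deposited by the authors as a percent of each cell's counts. The matrices held 18233 cells, which were 8981 tdTom+ and 9252 tdTom- cells with 167940767 and 157174026 spliced UMIs.

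The members and lists were chosen with earlier results of these data known. Doublets were called by simulation and left out (377 tdTom+ and 518 tdTom- cells, 4.20% and 5.60%), as was 1 cluster with over 50% calls. Cells were clustered with scanpy 1.11.5 and leidenalg 0.10.2 (1857 variable genes, 50 components, 20 neighbours, resolution 1.5), and blood and endothelium again (1930 genes, 30 components, 15 neighbours, resolution 1). Left out of both were the members, the other lists, the globin genes, mitochondrial genes, several sex-linked genes and the tdTomato sequence (159 genes). A class name needed 3 markers at least 2-fold up with 10 CPM added. After the clusters were seen, the blood gate was widened to all haematopoietic sub-clusters whether or not named, since the first rule would have left out a cluster of 1146 cells, 1145 of them tdTom+. Sub-clusters named endothelial were left out of blood and of the other lineages (529 and 379 cells), and 1217 and 1276 cells outside blood had no class name and were not used.

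Counts were summed per group and divided by all non-globin spliced UMIs of that group. With 1 library per fraction no p-value was computed. Folds carry the exact conditional 95% interval of 2 Poisson counts, and "past 2-fold" refers to genes with at least 50 UMIs over both groups. Shares have exact Clopper-Pearson intervals, and a count of 0 allows 3 counts. PCR and droplet effects are not in these intervals. Genes were named by rule, as the 5 highest and 5 lowest folds with 50 UMIs plus a fixed list, and at most 3 genes furthest from 0 in the other lists. Fold and interval code was tested on simulated data. Python 3.11.15, numpy 2.4.6, scipy 1.17.1, pandas 2.3.3, anndata 0.12.19 and matplotlib 3.10.9 were used.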

Additional observations from a re-analysis of the deposited data

How the results depend on the processing

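No paired analysis was possible because each fraction was 1 library without a replicate number, and for the same reason no replicate could be left out. The number of members past the fold in the comparison at 1% to 10% globin (4), of 10% or more over 0.1% to 1% globin (3), of blood over other lineages (3 in tdTom+ and 7 in tdTom-) and between fractions in the other lineages (0) moved by more than 1.5 times under these settings. At 1.5-fold the counts were 7, 8, 10, 13 and 2, the last being *Ccna2* and *Cdc25b*. With bins at 0.3%, 3% and 30% the first was 7 and the second 1. Centred on the median gene, tdTom- blood over other lineages gave 15. With sub-clusters of mostly erythroid or blood progenitor markers only, whether or not they met a class rule, tdTom+ blood over other lineages gave 5, and the comparison by globin was not run, since 9 cells remained in the lower bin. Between the highest and lowest of 4 globin groups of erythroid-like cells (3), leaving out the *Cdkn1a*-high sub-cluster gave 0. Without thinning, mean r was 0.107 and 0.081 within the S-phase genes and 0.163 and 0.165 within the G2/M genes, in tdTom+ and tdTom-. In the comparisons listed first, no member past 2-fold changed direction in 192 recomputed values, and 95 of all 1333 values did. Outside them, *Cdkn1a* in 10% or more over 1% to 10% globin changed sign without the *Cdkn1a*-high sub-cluster, as given above. Leaving out the barcodes found in both libraries gave 4, 3, 3, 6 and 0. Shares of all genes were not computed at 1.5-fold, with bins at 0.3%, 3% and 30%, for the count of 5 or without these barcodes. Those counts therefore show nothing particular to the list. The 4 globin groups, the bin of 2% to 4%, the GATA element and the settings that left out sub-clusters or barcodes were chosen after seeing the data. Genes with few UMIs (*Cdkn2c*, *Nek2*, *Ccnd1* in blood) are limited by depth. The cause of these changes was not tested.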
